A study of Homo sapiens with 8 samples.

Results

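Messenger RNA of DLD1 cells, a human colorectal adenocarcinoma line, was compared between hypoxia and normoxia in cells that carried a control hairpin RNA. The comparison used 4 of the 8 libraries of the series: 2 of control-hairpin cells kept under hypoxia for 12 hours and 2 of control-hairpin cells kept under normoxia for 12 hours, chosen by their titles and treatment labels. The control cells have the genotype label WT. The other 4 libraries came from DLD1 cells whose hairpin targets PPA2, which encodes the inorganic pyrophosphatase of mitochondria, 2 under hypoxia and 2 under normoxia, and they serve here to set the response of control cells against. The labels give no oxygen percentage, no sequence or promoter of either hairpin, and no word on whether a line was a clone or a pool. They also do not say whether replicates were separate cultures, so the spread given here may be technical.

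Cells sense low oxygen through prolyl hydroxylases, which use oxygen to mark the alpha subunits of hypoxia-inducible factor (HIF) for destruction by the VHL ubiquitin ligase. When oxygen falls, the alpha subunits persist, pair with ARNT and activate genes that hold the core motif ACGTG or GCGTG, among them genes of glucose uptake and glycolysis, vessel growth, matrix modification and feedback on oxygen sensing itself. Longer hypoxia is also known to slow protein synthesis, ribosome production and the cell cycle. In colorectal cancer such genes are commonly studied as a sign of poorly perfused tumour tissue.

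The hypoxia values were deposited as FPKM (fragments scaled to gene length and library size) and the normoxia values as RPKM (reads scaled in the same way), in tables made separately, so that oxygen level and table cannot be told apart. For that reason each gene is described by its place within its own library. A centred value is log2(value + 1) minus the median of that library over the 13360 genes used, those averaging 1 or more over the 4 control libraries. The difference is the hypoxia mean minus the normoxia mean of centred values, given with the standard error from the spread within both pairs. A gene is called higher or lower where this difference reached 1 in size, a 2-fold change on that scale, and the groups did not overlap. No test was made across the tables, and 2 against 2 libraries could not give an exact two-sided permutation p under 0.333. The files hold no read counts, so depth is unknown and no counting error could be given.

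The libraries of a group were close to each other. Across the genes used, log2 values of replicates correlated at r = 0.993 under hypoxia and at 0.996 under normoxia, and libraries of different oxygen level at 0.821 to 0.824. The median standard error of a difference was 0.08. Epithelial markers checked the cell type, with 9 of 10 at 1 or more in each of the 4 control libraries and a summed level of 3565 and 3220 FPKM under hypoxia, against 4105 and 3964 RPKM under normoxia. Summed fibroblast markers were at most 1.94, leukocyte markers at most 2.08 and endothelial markers at most 2.42 in any control library. PPA2 stood at 65.5 and 50.8 FPKM under hypoxia, against 79.8 and 84.1 RPKM under normoxia in control cells. In the knockdown cells it was 9.85 and 9.0 FPKM under hypoxia, against 5.88 and 5.74 RPKM under normoxia, which checks the hairpin labels.

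Under hypoxia, control cells held higher transcripts of HIF targets, of part of the glucose-handling genes and of part of the sterol synthesis genes, and lower transcripts of part of the ribosome biogenesis genes. In all, 1352 genes, 10.1% of those used, were called higher and 1326, 9.93%, were called lower. Of all genes, 85.5% did not overlap between the groups, so a gap between the groups alone set few genes apart. A large part of the calls moved with a property of the genes that has no link to oxygen by its definition: how much of a gene's transcripts is repeated elsewhere. For each gene, the share of its 31-base words that also occur in another gene of GENCODE 29 was counted, which is high for overlapping genes, readthrough transcripts, paralogs and parents of pseudogenes. Among protein-coding genes with under 1% of shared words, 4.76% were called higher and 5.64% lower. With 25 to 50% shared words, 28.97% were called higher and 4.21% lower, and with at least 50% these shares were 54.97% and 5.52%.

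**Figure D1:**
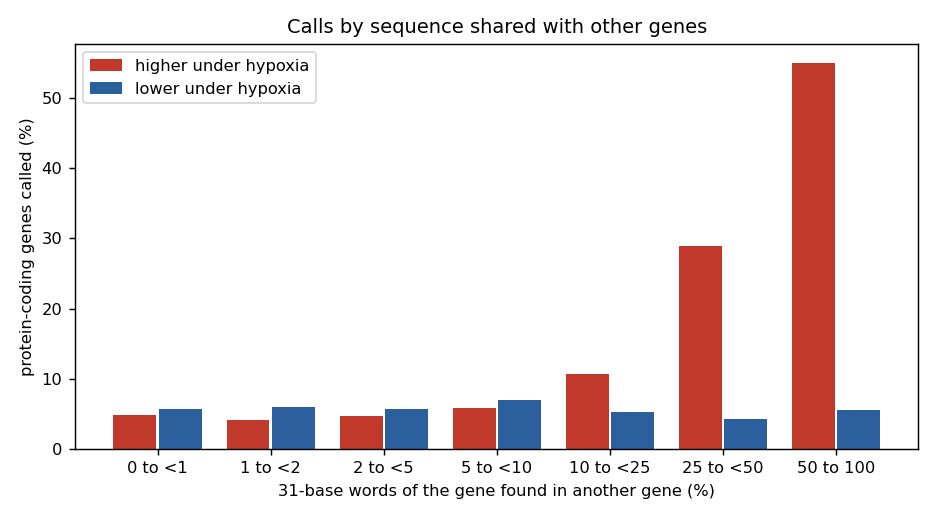
Share of protein-coding genes called higher (red) or lower (blue) under hypoxia in control-hairpin cells, on the vertical axis in percent, by the percentage of a gene's 31-base words found in another gene. Calls of higher genes climb to 54.97% in the last class, while calls of lower genes stay between 4.21% and 6.94%.

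Processed pseudogenes, copies of mRNAs inserted in the genome, went the other way: 308 of 418 used, or 73.7%, were called lower, with a median difference of −1.63. There were 76 genes listed at 0 in all 4 normoxia libraries, knockdown included, and at 1 or more in all 4 hypoxia libraries, and 68 genes with the reverse. How reads that fit several genes were counted is not given in the sources used here, and the part this plays in any one gene was not tested. The share of repeated sequence is therefore given beside the genes named, and counts are also given for the 5936 protein-coding genes with under 5% of shared words, a limit chosen after seeing the data. Among these, 275 were called higher (4.63%) and 337 lower (5.68%), and the correlation between libraries of different oxygen level was 0.907 to 0.913. Calls also moved with base composition and length in this set. With genes split into 5 classes of equal size, 10.7% of the class richest in G and C were called higher and 3.12% lower, against 2.44% and 6.397% in the poorest class. Of the class with the longest transcripts 9.19% were called lower, against 2.53% of that with the shortest.

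HIF targets took a higher place in the hypoxia libraries. Of 44 genes on the list, 36 passed the filter on low values; 18 of these were called higher, 0 were called lower and 18 were not called, set against 10.1% of all genes called higher. The median difference over the 36 was 0.97, against −0.08 over all genes used. Their median percentile among the genes used was 91.6 and 91.7 in the hypoxia libraries and 73.0 and 71.3 in the normoxia libraries. Of the 23 with under 5% shared words, 12 were called higher against 4.63% of all such genes, and the median difference was 1.10. The 8 members that did not pass the filter were CA9, CA12, BNIP3, LOX, LOXL2, STC2, NDUFA4L2 and SPAG4.

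ADM codes for adrenomedullin, a peptide that widens blood vessels and is a classic hypoxia-induced transcript, and shares no 31-base word with another gene. It lies on chromosome 11 of GRCh38 (10305073 to 10307397, plus strand). It stood at 202 and 185 FPKM under hypoxia, against 42.9 and 39.6 RPKM under normoxia. As the call requires, both hypoxia libraries lay above both normoxia libraries. The difference was 2.38 ± 0.10 (SE), 5.21-fold, with percentiles of 98.2 and 98.1 under hypoxia, against 85.1 and 83.9 under normoxia. BHLHE40, a transcriptional repressor of the circadian clock and a direct HIF target, was at 186 and 175 FPKM under hypoxia, against 39.7 and 35.8 RPKM under normoxia, a difference of 2.41 ± 0.09. Its relative BHLHE41 was lower in level, at 4.26 and 5.01 FPKM under hypoxia, against 1.48 and 1.55 RPKM under normoxia, with a difference of 1.34 ± 0.08. ANGPTL4, a secreted inhibitor of lipoprotein lipase, was at 57.5 and 56.7 FPKM under hypoxia, against 11.5 and 9.37 RPKM under normoxia, and the difference was 2.53 ± 0.14. These 4 genes shared at most 3.48% of their words with other genes.

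Several called members shape the matrix or chromatin. PLOD2 and P4HA1, collagen lysyl and prolyl hydroxylases, were at 119.6 and 129.5 FPKM under hypoxia, against 59.1 and 54.7 RPKM under normoxia, and at 84.9 and 83.7 FPKM under hypoxia, against 44.2 and 41.4 RPKM under normoxia. Their differences were 1.29 ± 0.06 and 1.14 ± 0.05. P4HA2, the other main collagen prolyl hydroxylase subunit, reached 0.83 ± 0.02 and was not called. KDM3A, a histone demethylase that itself needs oxygen, stood at 38.5 and 49.4 FPKM under hypoxia, against 22.9 and 22.1 RPKM under normoxia (1.10 ± 0.16). NDRG1, linked to differentiation and growth arrest, was at 197 and 225 FPKM under hypoxia, against 94.0 and 78.7 RPKM under normoxia (1.46 ± 0.15). INSIG2, which holds back sterol synthesis, was at 59.7 and 58.4 FPKM under hypoxia, against 21.8 and 20.8 RPKM under normoxia (1.61 ± 0.05). ANKZF1, which takes part in ribosome-associated quality control, was at 110.4 and 106 FPKM under hypoxia, against 25.4 and 23.0 RPKM under normoxia, with a difference of 2.29 ± 0.08 and 4.87% shared words. NRN1, which codes for neuritin, was low in both groups, at 3.11 and 3.81 FPKM under hypoxia, against 0.869 and 0.630 RPKM under normoxia (1.53 ± 0.13).

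The 3 largest differences of the list belonged to members with more repeated sequence. ANKRD37, an ankyrin-repeat protein, was at 152 and 162 FPKM under hypoxia, against 15.4 and 13.2 RPKM under normoxia (3.54 ± 0.10, 33.5% shared words). DDIT4, an inhibitor of mTORC1 signalling, was at 1101 and 1009 FPKM under hypoxia, against 154 and 132 RPKM under normoxia (3.05 ± 0.13, 38.3% shared). HILPDA, which protects lipid droplets from breakdown, was at 266 and 254.6 FPKM under hypoxia, against 43.4 and 41.2 RPKM under normoxia (2.77 ± 0.06, 16.5% shared). The other called members were EGLN1, described with the oxygen-sensing genes, and FUT11, VLDLR and RNASE4. The last 3 had differences of 2.73, 1.58 and 2.43 and shared words of 15.2%, 8.43% and 71.1%. Of these, RNASE4 shares its start with a neighbouring ribonuclease gene and stood near 0 in normoxia, at 4.36 and 3.83 FPKM under hypoxia, against 0.101 and 0.0395 RPKM under normoxia. Its value in both tables is uncertain for that reason.

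Members that were not called included well-known HIF targets. VEGFA, the main growth factor of blood vessels, was at 134 and 144 FPKM under hypoxia, against 125 and 108 RPKM under normoxia, a difference of 0.44 ± 0.11. Its groups did not overlap, but the difference lay below the 2-fold limit. EGLN3 reached 0.71 ± 0.08, MXI1 0.80 ± 0.07 and KDM4B 0.71 ± 0.07. BNIP3L, a mitophagy receptor, was at 70.7 and 73.3 FPKM under hypoxia, against 109 and 102 RPKM under normoxia, lower by the centred values (−0.37 ± 0.05). ERO1A, an oxidase of the endoplasmic reticulum, was at 55.6 and 58.2 FPKM under hypoxia, against 77.9 and 72.9 RPKM under normoxia (−0.22 ± 0.05), and ASPH, which hydroxylates aspartate residues, had the lowest difference of the list at −0.76 ± 0.04. CA9, a carbonic anhydrase widely used as a hypoxia marker, was at 0.490 and 0.345 FPKM under hypoxia, against 0.489 and 0.288 RPKM under normoxia, below the limit for use.

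**Figure D2:**
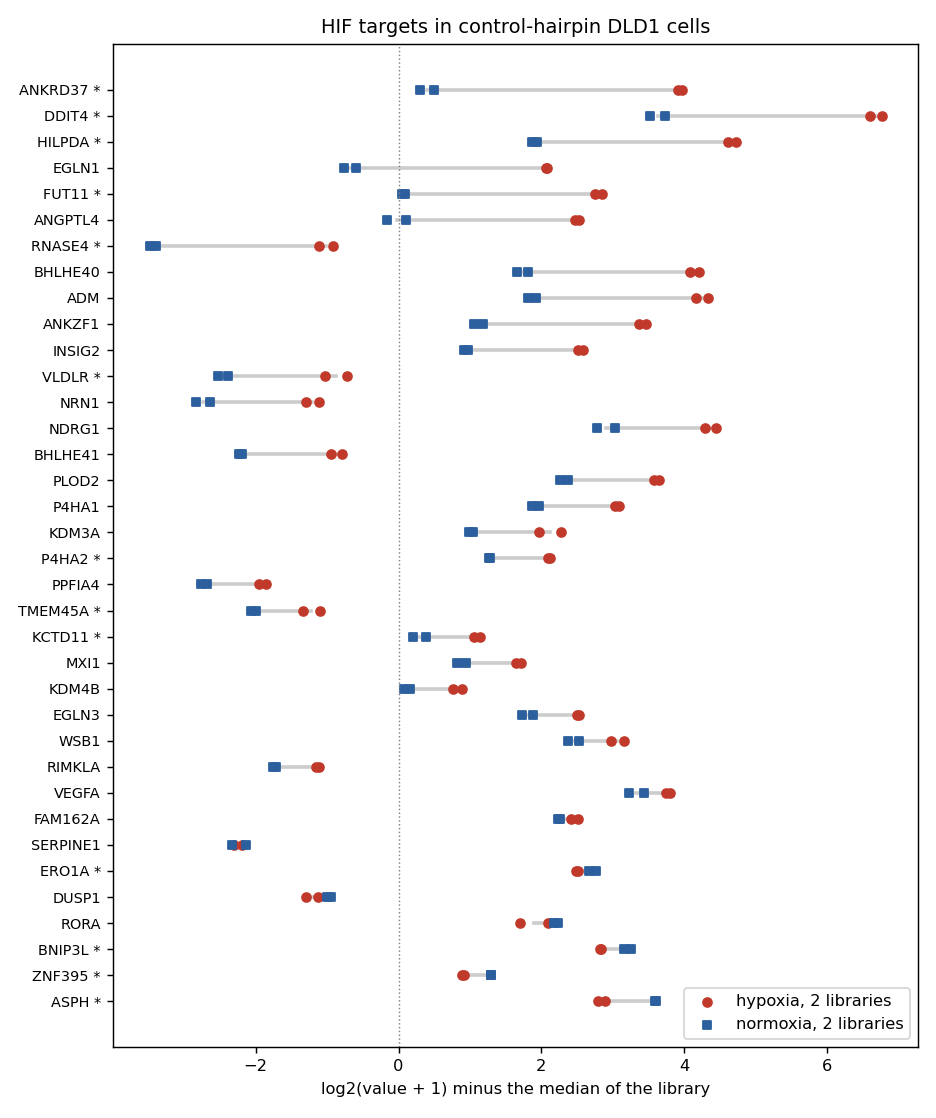
Centred log2 values of the 36 HIF targets used, one row a gene in order of the difference, with both hypoxia libraries as red circles and both normoxia libraries as blue squares. The horizontal axis is log2(value + 1) minus the library median, and an asterisk marks genes with at least 5% of shared 31-base words. ADM, BHLHE40, ANGPTL4 and EGLN1, with 2.38 to 2.75 between the means, show wide gaps without an asterisk.

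Of the oxygen-sensing machinery, 9 of 10 genes were used, and HIF3A was not. Of these, 2 were called higher, against 10.1% of all genes, and 0 lower. EGLN1, the main prolyl hydroxylase that marks HIF alpha subunits, lies on chromosome 1 of GRCh38 (231363751 to 231422287, minus strand) and was at 41.3 and 43.0 FPKM under hypoxia, against 6.68 and 5.83 RPKM under normoxia, a difference of 2.75 ± 0.08 (6.74-fold) with 4.87% shared words. EGLN2, another such hydroxylase, was at 10.9 and 13.0 FPKM under hypoxia, against 0.407 and 0.555 RPKM under normoxia (3.30 ± 0.12). This gene overlaps a readthrough with its neighbour, shares 28.9% of its words and stood near 0 in all normoxia libraries, which makes its value uncertain. The subunit genes themselves differed little. HIF1A was at 31.5 and 32.5 FPKM under hypoxia, against 47.7 and 48.8 RPKM under normoxia (−0.40 ± 0.02) and EPAS1, the gene for HIF-2 alpha, at 6.53 and 8.72 FPKM under hypoxia, against 7.88 and 7.02 RPKM under normoxia, where the groups overlapped (0.20 ± 0.18). ARNT, the partner of both, differed by 0.13 ± 0.05, HIF1AN by 0.06 ± 0.01 and VHL by 0.62 ± 0.06. ARNT2 was the lowest at −0.87 ± 0.04, again under the 2-fold limit.

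The windows from 250 bases before to 50 bases after the start of each gene (RefSeq, GRCh38.p14) were searched for ACGTG on both strands, the core of a HIF site, which also lies within the E-box CACGTG. Windows were found for 23 of the 36 HIF targets used, and 16 of these held the motif, or 69.6%. Among all 22114 windows the share was 21.3%, and among protein-coding genes with under 5% shared words 27.1% (901 of 3323). It was 27.0% of the called-higher genes of that kind (41 of 152) and 35.2% of the called-lower ones (62 of 176). Among HIF targets, 8 of 11 called members and 8 of 12 members not called held it, so the motif in this window did not part them. The core GCGTG was in 52.0% of windows of the low-shared protein-coding genes and in 9 of 23 HIF targets.

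The upstream bases of 4 called genes show where the core stands. They were chosen as the HIF and glycolysis genes with the largest differences among those with under 5% shared words and a match. Each is written 5′ to 3′ on the strand of the gene, ends on the base before the start, and has each ACGTG or its complement CACGT in capitals.
EGLN1 (chr1:231422288-231422537, minus strand): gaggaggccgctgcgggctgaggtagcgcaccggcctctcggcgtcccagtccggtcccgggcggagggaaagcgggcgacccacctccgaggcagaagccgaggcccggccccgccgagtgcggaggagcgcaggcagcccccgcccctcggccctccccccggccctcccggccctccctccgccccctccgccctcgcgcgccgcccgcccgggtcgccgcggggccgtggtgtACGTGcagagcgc
ANGPTL4 (chr19:8363905-8364154, plus strand): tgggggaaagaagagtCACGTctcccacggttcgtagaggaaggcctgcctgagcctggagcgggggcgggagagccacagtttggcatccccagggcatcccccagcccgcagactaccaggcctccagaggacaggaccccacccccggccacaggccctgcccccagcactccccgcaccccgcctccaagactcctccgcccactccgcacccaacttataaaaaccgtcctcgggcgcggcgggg
BHLHE40 (chr3:4979187-4979436, plus strand): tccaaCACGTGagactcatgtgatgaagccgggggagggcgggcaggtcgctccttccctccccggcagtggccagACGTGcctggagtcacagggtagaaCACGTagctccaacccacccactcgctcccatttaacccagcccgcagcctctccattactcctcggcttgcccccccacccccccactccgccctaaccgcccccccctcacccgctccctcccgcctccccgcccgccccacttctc
ENO2 (chr12:6914330-6914579, plus strand): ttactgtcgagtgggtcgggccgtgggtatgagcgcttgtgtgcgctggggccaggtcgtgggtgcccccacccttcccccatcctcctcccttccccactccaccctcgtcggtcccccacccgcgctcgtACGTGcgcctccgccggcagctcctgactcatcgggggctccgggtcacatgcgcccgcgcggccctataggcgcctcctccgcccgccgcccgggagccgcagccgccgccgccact
EGLN1 has its only match 13 bases before the start. ANGPTL4 has 1 match far upstream, 234 bases before the start, and ENO2, the neuronal enolase gene, has 1 at 118 bases. BHLHE40 holds 4 matches, of which the first 2 overlap as the E-box CACGTG. A match describes these letters only and does not show that a factor binds.

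Genes of glycolysis and glucose handling differed less than the HIF list. Of 27 genes, 26 were used, 5 were called higher, against 10.1% of all genes, and 0 lower, with a median difference of 0.27. Of the 12 with under 5% shared words, 2 were called higher, against 4.63% of all such genes, and the median was 0.41. ENO2 was at 58.8 and 56.4 FPKM under hypoxia, against 16.2 and 15.6 RPKM under normoxia, a difference of 1.97 ± 0.06 and 3.93-fold. PFKFB4, which makes an activator of phosphofructokinase, was at 68.0 and 74.1 FPKM under hypoxia, against 27.1 and 23.3 RPKM under normoxia (1.64 ± 0.11, 4.24% shared). SLC2A3, the glucose transporter GLUT3, was at 123 and 131 FPKM under hypoxia, against 27.6 and 23.2 RPKM under normoxia (2.46 ± 0.12, 30.4% shared, a near copy of another transporter gene). ALDOC, an aldolase, was at the limit, at 11.3 and 11.6 FPKM under hypoxia, against 6.65 and 5.46 RPKM under normoxia (1.0 ± 0.12).

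The abundant enzymes of the pathway kept about the same place. LDHA, lactate dehydrogenase, was at 1329 and 1216 FPKM under hypoxia, against 1326 and 1362 RPKM under normoxia (0.10 ± 0.09), PGK1 at 223 and 226 FPKM under hypoxia, against 229.7 and 221 RPKM under normoxia (0.17 ± 0.03), and ENO1 at 1209 and 1199 FPKM under hypoxia, against 1503 and 1539 RPKM under normoxia (−0.16 ± 0.03). PDK1, which restrains entry of pyruvate into the mitochondrion, differed by 0.01 ± 0.14. The transporter SLC2A1 (GLUT1) reached 0.56 ± 0.10 and PFKFB3 0.84 ± 0.11, both under the 2-fold limit. ALDOA was at 921 and 817 FPKM under hypoxia, against 12.7 and 10.1 RPKM under normoxia, a nominal difference of 6.31 ± 0.18. It shares 53.6% of its words with other genes and was also low in the knockdown normoxia libraries (8.14 and 7.30 RPKM), and table and oxygen cannot be told apart in these values.

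Ratios of 2 related genes within 1 library do not depend on the scale of the table. ENO2 was 4.87% and 4.70% of ENO1 in the hypoxia libraries and 1.08% and 1.01% in the normoxia libraries. PFKFB4 was 110.03% and 102.3% of PFKFB3 under hypoxia, against 62.3% and 58.0% under normoxia. SLC2A3 was 22.1% and 23.9% of SLC2A1 under hypoxia, against 6.05% and 5.86% under normoxia. P4HA1 was 197% and 193% of P4HA2 under hypoxia, against 163% and 154% under normoxia. In each pair the ratios of the 2 groups were apart, and a ratio alone does not say which of the 2 genes differed. Each pair sets a member called higher over a relative that was not called. A higher ratio under hypoxia therefore followed from that choice and gives no further support. A ratio does not remove an effect of the table on a single gene, so oxygen level and table cannot be told apart here either.

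Sterol synthesis genes were among the lists with a positive median. Of 25 genes of cholesterol synthesis and uptake, all used, 6 were called higher, against 10.1% of all genes, and 0 lower. The median difference was 0.42. Of the 16 with under 5% shared words, 3 were called higher, against 4.63% of all such genes, and the median was 0.36. EBP, the sterol isomerase, was at 50.2 and 50.6 FPKM under hypoxia, against 17.3 and 15.4 RPKM under normoxia (1.75 ± 0.08). MVD, the decarboxylase of the mevalonate pathway, was at 43.4 and 48.8 FPKM under hypoxia, against 17.3 and 16.7 RPKM under normoxia (1.56 ± 0.07), and INSIG1, the sterol-regulated brake on SREBP processing, at 126 and 129 FPKM under hypoxia, against 59.8 and 55.7 RPKM under normoxia (1.31 ± 0.05). HMGCS1, IDI1 and FDPS were called too, with 16.3% to 23.3% shared words and differences of 1.39, 1.51 and 1.08. SQLE, squalene epoxidase, which needs oxygen as a substrate, differed by −0.03 and was not called.

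Collagen and histone modification hold many enzymes that use oxygen as a substrate. Among collagen-modifying and matrix genes, 4 of 15 used were called higher, against 10.1% of all genes, and 0 lower. These were the matrix proteins LAMA5, a laminin chain, at 62.1 and 74.4 FPKM under hypoxia, against 17.0 and 17.1 RPKM under normoxia (2.11 ± 0.11), COL7A1, a collagen chain, at 5.95 and 4.65 FPKM under hypoxia, against 0.882 and 0.857 RPKM under normoxia (1.92 ± 0.17), and the hydroxylases PLOD2 and P4HA1. The median of this list was 0.18, but it was −0.07 over the 13 with under 5% shared words and −0.11 without hypoxia replicate 1. Among histone demethylases of the JmjC family and related dioxygenases, 3 of 20 used were called higher, against 10.1% of all genes, namely JMJD6 (1.68 ± 0.06), KDM4A (1.22 ± 0.07, 47.2% shared) and KDM3A, and 1 was called lower, RIOX1 (−1.09 ± 0.17).

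Part of the genes for making ribosomes were lower. Of 28 genes of MYC and ribosome biogenesis, 8 were called lower against 9.93% of all genes, 2 were called higher and 18 were not called, and the median difference was −0.58. Among the 14 with under 5% shared words, 7 were called lower, against 5.68% of all such genes, 0 were called higher, and the median was −0.99. POLR1B, a core subunit of RNA polymerase I, was at 6.198 and 6.97 FPKM under hypoxia, against 24.01 and 24.2 RPKM under normoxia (−1.55 ± 0.05). POLR1A, its largest subunit, was at 8.31 and 10.1 FPKM under hypoxia, against 24.5 and 25.6 RPKM under normoxia (−1.18 ± 0.11), and NOLC1, a nucleolar chaperone, at 62.2 and 55.8 FPKM under hypoxia, against 147 and 148 RPKM under normoxia (−1.13 ± 0.10). ODC1, which starts polyamine synthesis, was at 84.0 and 83.5 FPKM under hypoxia, against 222 and 235 RPKM under normoxia (−1.26 ± 0.05). MYC itself stood at 25.6 and 26.4 FPKM under hypoxia, against 65.1 and 60.4 RPKM under normoxia (−1.06 ± 0.05). The 2 members called higher, NOP2 and PPAN, share 53.5% and 56.6% of their words and were near 0 or low in all 4 normoxia libraries.

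Most cell-cycle genes were not called. Of 28 genes of G2 and mitosis, 21 were not called, 5 were called lower, against 9.93% of all genes, and 2 higher, with a median of −0.61. Of the 17 with under 5% shared words, 2 were called lower, against 5.68% of all such genes, and the median was −0.62. CENPF, a kinetochore protein, was at 20.6 and 27.4 FPKM under hypoxia, against 77.4 and 82.9 RPKM under normoxia (−1.53 ± 0.18), and BIRC5, or survivin, at 29.3 and 25.4 FPKM under hypoxia, against 84.6 and 91.0 RPKM under normoxia (−1.47 ± 0.13). PLK1 and CDC20 differed by −1.13 and −1.11. The 2 called higher, NUSAP1 and PRC1, share 61.6% and 56.4% of their words. Of 37 DNA replication genes 4 were called lower, a share near the 9.93% of all genes, and 2 higher, with a median of −0.42.

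Lists of NF-kB targets and of immediate early genes also held lower members. Of 20 NF-kB targets and cytokines used, 4 were called lower, against 9.93% of all genes, 1 was called higher and 15 were not called, with a median of −0.62. Of the 11 with under 5% shared words, 2 were called lower, against 5.68% of all such genes. CXCL8, the neutrophil chemoattractant interleukin 8, was at 17.2 and 16.9 FPKM under hypoxia, against 43.7 and 42.0 RPKM under normoxia (−1.10 ± 0.04), and CXCL5 at 309 and 309.7 FPKM under hypoxia, against 894 and 845 RPKM under normoxia (−1.31 ± 0.04). CXCL1 and CSF1 differed by −1.33 and −1.22. Of 28 immediate early genes used, 4 were called lower, against 9.93% of all genes, 1 was called higher and 23 were not called. Of the 22 with under 5% shared words, 4 were called lower, against 5.68% of all such genes. FOS was lowest, at 2.24 and 2.15 FPKM under hypoxia, against 11.4 and 11.3 RPKM under normoxia (−1.77 ± 0.04), followed by MCL1, MYC and EGR1 (−1.13, −1.06 and −1.0). The median of that list, −0.27, turned to 0.34 where a mean of at least 5 was required, and IER3 was called higher (1.97, 24.8% shared).

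**Figure D3:**
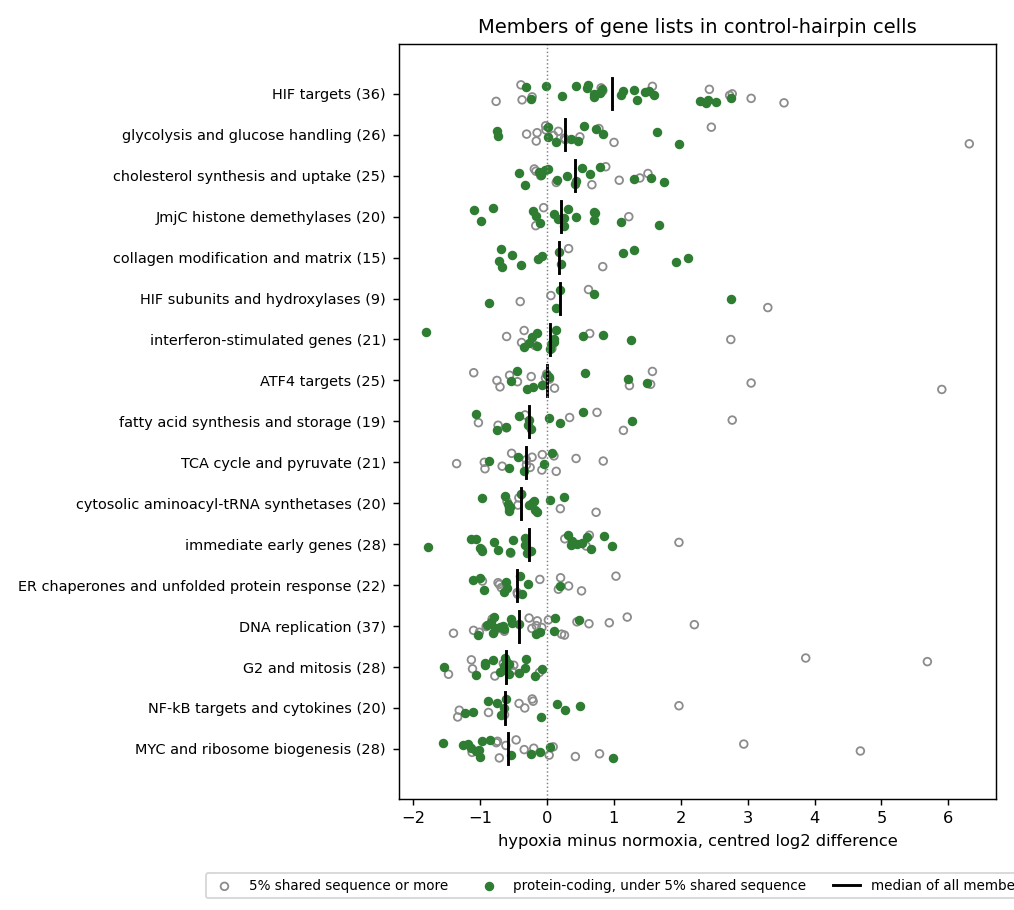
Difference between hypoxia and normoxia (horizontal axis, centred log2) for every member used of 17 gene lists in control-hairpin cells, with the number of members in brackets. Green points are protein-coding genes with under 5% of shared words, open circles the other members, and black bars the median of all members. The medians run from 0.97 for HIF targets to −0.62 for NF-kB targets and cytokines, and the isolated points beyond 3.5 on the right are open circles.

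Other lists were near the median of all genes or mixed, and their counts are set against 10.1% of all genes called higher and 9.93% lower. Of 20 cytosolic aminoacyl-tRNA synthetases 0 were called in either direction (median −0.38). The 25 ATF4 targets used had 7 higher and 1 lower with a median of −0.01. Of the 10 with under 5% shared words, 2 were called higher, against 4.63% of all such genes. DDIT3, the stress factor CHOP, was at 45.2 and 42.8 FPKM under hypoxia, against 18.4 and 14.5 RPKM under normoxia (1.55 ± 0.17, 28.9% shared). Of 22 genes of the unfolded protein response 2 were called lower and 1 higher (median −0.44). Of 18 autophagy genes used 3 were called higher, with ULK1, the starting kinase, at 17.4 and 17.2 FPKM under hypoxia, against 6.84 and 6.93 RPKM under normoxia (1.39 ± 0.03). GADD45B, a stress gene of the growth arrest family, was at 64.9 and 67.4 FPKM under hypoxia, against 22.03 and 19.7 RPKM under normoxia (1.80 ± 0.07). Among the housekeeping genes, RPLP0 differed by 0.03 ± 0.10 and TUBB by −0.05 ± 0.08, while TFRC, the transferrin receptor, was lower by 1.67 on the centred log2 scale, at 41.8 and 43.7 FPKM under hypoxia, against 154 and 160.2 RPKM under normoxia.

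Long noncoding RNAs held 4 higher and 1 lower of 12 used, against 15.9% higher and 9.69% lower of all 980 lncRNA genes used. MIR210HG, the host of the hypoxia-induced miR-210, was at 65.0 and 56.4 FPKM under hypoxia, against 9.70 and 8.56 RPKM under normoxia (2.78 ± 0.14, 4.83% shared words), and NEAT1, the scaffold of paraspeckles and a known HIF-2 target, at 411 and 393 FPKM under hypoxia, against 166 and 157 RPKM under normoxia (1.48 ± 0.07, 3.65% shared). MALAT1, from the locus next to NEAT1, was at 28.7 and 37.4 FPKM under hypoxia, against 114 and 116 RPKM under normoxia (−1.60 ± 0.17). Of 17 snoRNA host genes used, 8 were called higher and 1 lower, against 10.1% and 9.93% of all genes, with a median of 0.84. SNHG8 was at 173 and 155 FPKM under hypoxia, against 15.4 and 13.7 RPKM under normoxia (3.58 ± 0.13), and SNHG4 at 17.6 and 19.2 FPKM under hypoxia, against 60.7 and 59.99 RPKM under normoxia (−1.49 ± 0.04). Counts under 5% shared words were made for protein-coding genes only, so no such count is given for this list.

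Messenger RNAs of the mitochondrial genome split into groups. Of 13, 6 were called lower, against 9.93% of all genes, 1 was called higher, against 10.1%, and 6 were not called. MT-ND1, a core subunit of complex I, was at 87.1 and 76.8 FPKM under hypoxia, against 2229 and 1847 RPKM under normoxia (−4.44 ± 0.17). MT-ND6, the mRNA encoded on the opposite strand from the others, was at 25.3 and 19.9 FPKM under hypoxia, against 772 and 838 RPKM under normoxia (−4.92 ± 0.19), and MT-ND5 at 193 and 173 FPKM under hypoxia, against 1827 and 2136 RPKM under normoxia (−3.25 ± 0.15). MT-CO1, the catalytic subunit of complex IV, was at 1128 and 986 FPKM under hypoxia, against 8244 and 9084 RPKM under normoxia (−2.86 ± 0.14). MT-ND4 and MT-ND4L, which share an mRNA, differed by −1.84 ± 0.16 and −1.31 ± 0.07. In contrast MT-CYB was at 3941 and 3420.3 FPKM under hypoxia, against 3765 and 3320.0 RPKM under normoxia (0.23 ± 0.15), MT-ND2 at 3072 and 2618 FPKM under hypoxia, against 2959 and 2744 RPKM under normoxia (0.17 ± 0.15) and MT-ND3 differed by 0.58 ± 0.14.

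The knockdown libraries of the same tables did not show the same 6 genes low to this degree. MT-ND1 was at 1443 and 1415 FPKM under hypoxia, against 2993 and 2467 RPKM under normoxia in knockdown cells, and MT-CO1 at 7489 and 7431 FPKM under hypoxia, against 9288 and 9172 RPKM under normoxia. MT-ATP8, which overlaps MT-ATP6 on the same mRNA, was the 1 called higher, at 5463 and 4713 FPKM under hypoxia, against 746 and 666 RPKM under normoxia, with about the same difference in knockdown cells (2.94, against 3.02 in control cells). The share of words found in another gene, mitochondrial or nuclear, was 15.1% to 66.7% in the 6 lower genes and 50.5% and 56.9% in MT-CO2 and MT-ND2, and its part in these values was not tested. All genes of the mitochondrial genome together made up 8.49% and 7.64% of the summed values in the hypoxia libraries, against 11.2% and 10.8% in the normoxia libraries.

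**Figure D4:**
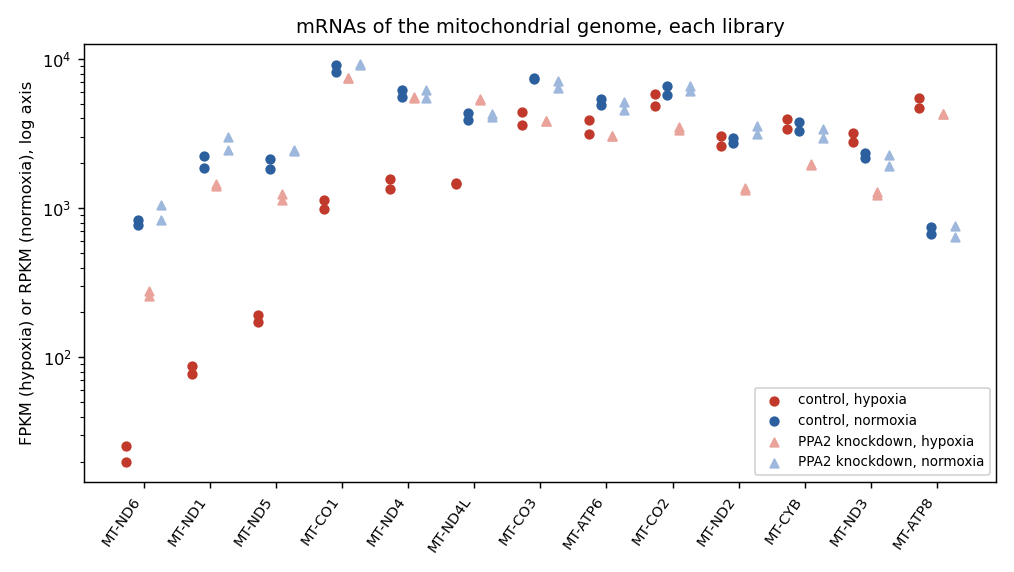
Level of the 13 mRNAs of the mitochondrial genome in each of the 8 libraries, in FPKM under hypoxia and RPKM under normoxia on a log axis, in order of the difference in control cells. Circles are control and triangles PPA2-knockdown libraries. MT-ND6, MT-ND1, MT-ND5, MT-CO1, MT-ND4 and MT-ND4L are lowest in the 2 control hypoxia libraries, with MT-ND1 at 87.1 and 76.8 FPKM.

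Nuclear genes of the respiratory chain had called members mainly where sequence is repeated. Of 37 complex I subunits 10 were called higher, against 10.1% of all genes, and 1 lower, with a median of 0.17. But of the 11 with under 5% shared words 1 was called higher, against 4.63% of all such genes, and the median was −0.02. The largest, NDUFA7, was at 43.0 and 31.2 FPKM under hypoxia, against 0.123 and 0.0965 RPKM under normoxia, with 45.8% shared words. For complexes II to V the counts were 9 higher and 1 lower of 38 (median 0.20), against 10.1% and 9.93% of all genes. They were 1 higher and 1 lower of 11 with under 5% shared words (median −0.29), against 4.63% and 5.68% of all such genes. TCA cycle and pyruvate genes had 0 higher and 1 lower of 21 (median −0.31), against 10.1% and 9.93% of all genes. The lower one was IDH2, mitochondrial isocitrate dehydrogenase, at 21.5 and 19.2 FPKM under hypoxia, against 60.4 and 60.6 RPKM under normoxia (−1.35 ± 0.10).

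By size alone, the protein-coding genes with the largest positive differences included MIF, RPS10, DDX39B, NME2, RPL36A, PSMA2, TOMM5, ALDOA, PFDN5, MRPS24 and CDK5RAP3. MIF, a cytokine gene, was at 635 and 543 FPKM under hypoxia, against 0.128 and 0.101 RPKM under normoxia, and in knockdown cells was at 651 and 646 FPKM under hypoxia, against 0.201 and 0.234 RPKM under normoxia. In these 11 genes the 4 normoxia libraries stood at 12.7 or less whatever the hairpin, and the share of repeated words was 4.53% to 59.3%. The 12 largest negative differences, outside 4 mitochondrial mRNAs, were those of CFAP126, DENND1C, MXRA8, RPS27AP5, NBPF14, UBL4A, NEU3 and PIGW. CFAP126, a cilia gene with 85.2% shared words, was listed at 0 in both control hypoxia libraries, against 12.9 and 11.5 RPKM under normoxia. Large noncoding differences had the same character, with the mitochondrial pseudogenes MTATP6P1 at 533 and 418 FPKM under hypoxia, against 13.3 and 9.70 RPKM under normoxia and MTCO3P12 at 1.61 and 0.821 FPKM under hypoxia, against 371 and 423 RPKM under normoxia.

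Among protein-coding genes with under 5% shared words and a value of at least 2 in each control library, a limit added after seeing the data, the 20 largest positive differences covered many functions, and those described here were picked by eye. Besides EGLN1, ANGPTL4, BHLHE40 and ADM, they included AREG (amphiregulin, a ligand of the EGF receptor) at 118 and 104 FPKM under hypoxia, against 29.3 and 22.4 RPKM under normoxia (2.25 ± 0.21) and EFNA1 (ephrin A1) at 129.6 and 119.9 FPKM under hypoxia, against 36.4 and 30.9 RPKM under normoxia (2.04 ± 0.14). SPRY1, a feedback inhibitor of receptor tyrosine kinase signalling, was at 30.8 and 30.97 FPKM under hypoxia, against 8.08 and 7.95 RPKM under normoxia (2.0 ± 0.02), and CCL26, an eosinophil chemokine, at 17.5 and 19.8 FPKM under hypoxia, against 3.27 and 2.99 RPKM under normoxia (2.42 ± 0.08). CTNND1, the gene for p120-catenin, had the largest difference, at 53.5 and 64.0 FPKM under hypoxia, against 3.03 and 2.91 RPKM under normoxia (4.08 ± 0.11), with 4.91% shared words, just under the limit, and it is known to overlap a readthrough transcript.

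On the lower side stood EHF, an epithelial ETS transcription factor, at 44.9 and 53.4 FPKM under hypoxia, against 236 and 234 RPKM under normoxia (−2.06 ± 0.10). OLR1, a lectin-like scavenger receptor, was at 41.4 and 40.8 FPKM under hypoxia, against 179 and 186 RPKM under normoxia (−1.95 ± 0.04). TWNK, the helicase of mitochondrial DNA, was at 2.59 and 3.36 FPKM under hypoxia, against 18.7 and 19.7 RPKM under normoxia (−2.17 ± 0.13). AHNAK, a giant scaffold protein, was at 49.8 and 74.7 FPKM under hypoxia, against 265 and 276 RPKM under normoxia (−1.95 ± 0.27), and its hypoxia libraries differed from each other more than its normoxia libraries. OAS3, an interferon-induced sensor of double-stranded RNA, was at 19.7 and 23.9 FPKM under hypoxia, against 87.5 and 90.6 RPKM under normoxia (−1.81 ± 0.12), and RAD18, a ubiquitin ligase of damage tolerance, at 6.78 and 7.40 FPKM under hypoxia, against 29.7 and 31.1 RPKM under normoxia (−1.78 ± 0.05). In each of these 6 genes both hypoxia libraries lay below both normoxia libraries, which the call required. Of all genes used, 85.5% did not overlap between the groups. Knockdown cells, which share both tables, gave −2.64 for OLR1, −2.08 for RAD18 and −0.92 for EHF.

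The response of control cells was then set against that of PPA2-knockdown cells, in which a difference between tables enters both sides. The hypoxia response of control cells was smaller for most HIF targets, glycolysis genes and sterol genes. Most genes of MYC and ribosome biogenesis stood less far below their normoxia place. In a limma fit of all 8 libraries, the interaction (response of control minus response of knockdown) was tested for 13585 genes. It passed at a Benjamini-Hochberg adjusted p under 0.05 for 5760 genes (42.4%), 3945 positive (29.0%) and 1815 negative (13.4%). The median interaction of all genes was 0.13, not 0, so medians of lists are also given relative to it. Interactions of single genes and their tests are as fitted, without that shift. With values rescaled to a common total the median was 0.01, and 52.0% of called genes were positive, against 68.5% in the fit as planned. With quantile normalization these were −0.01 and 48.9%. Of the 13585 genes, 2529 were negative after rescaling and 2891 with quantile normalization, against 1815 in the fit as planned. Counts for lists were made only in the fit as planned. Since knockdown libraries share both tables, this comparison says nothing of the table itself.

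Of 36 HIF targets, 27 passed with a smaller response in control cells, against 13.4% of all genes, and 4 with a larger one. The median interaction was −0.87, or −1.0 relative to all genes, and the median difference of knockdown cells was 2.18 against the 0.97 of control cells. NDRG1 was at 304 and 299 FPKM under hypoxia, against 15.6 and 17.9 RPKM under normoxia in knockdown cells, a response of 4.42, and its interaction was −2.81 ± 0.14 (SE; limma adjusted p = 1.97e-06). EGLN3 was at 121 and 125 FPKM under hypoxia, against 16.8 and 17.6 RPKM under normoxia in knockdown cells, with an interaction of −2.24 ± 0.09 (limma adjusted p = 8.92e-07). VEGFA was at 125 and 123 FPKM under hypoxia, against 40.3 and 43.7 RPKM under normoxia in knockdown cells, with an interaction of −1.28 ± 0.11 (limma adjusted p = 3.56e-05). The smaller response went with higher normoxia levels in control cells. Within the normoxia table, 30 of 36 members stood higher in control than in knockdown cells (median 0.47 on the centred log2 scale), and under hypoxia 11 of 36 did (median −0.31). ADM, with −0.10 ± 0.12, did not pass (limma adjusted p = 0.526), and neither did INSIG2 (0.06 ± 0.08, limma adjusted p = 0.615).

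Of all genes tested, 29.0% passed with a positive and 13.4% with a negative interaction. Of 26 glycolysis genes, 23 passed with a smaller response in control cells and 2 with a larger one (median −0.79, or −0.91 relative to all genes). LDHA was at 2117 and 2251 FPKM under hypoxia, against 871 and 912 RPKM under normoxia in knockdown cells, against little difference in control cells, an interaction of −1.37 ± 0.09 (limma adjusted p = 1.35e-05). For PGK1 the interaction was −1.61 ± 0.07 (limma adjusted p = 1.25e-06). Of 25 sterol genes 17 passed with a smaller response in control cells, against 13.4% of all genes, and 0 with a larger one. INSIG1 had −1.81 ± 0.08 (limma adjusted p = 1.41e-06). Of 28 genes of MYC and ribosome biogenesis 25 passed with a positive interaction, against 29.0% of all genes, and 1 with a negative one. The median was 0.67, or 0.54 relative to all genes, where the median difference of knockdown cells was −1.05. For snoRNA host genes 15 of 17 were positive, against 29.0% of all genes, and 0 negative (median 1.30, or 1.17 relative to all genes). SNHG8 was at 44.9 and 41.5 FPKM under hypoxia, against 9.94 and 10.7 RPKM under normoxia in knockdown cells.

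**Figure D5:**
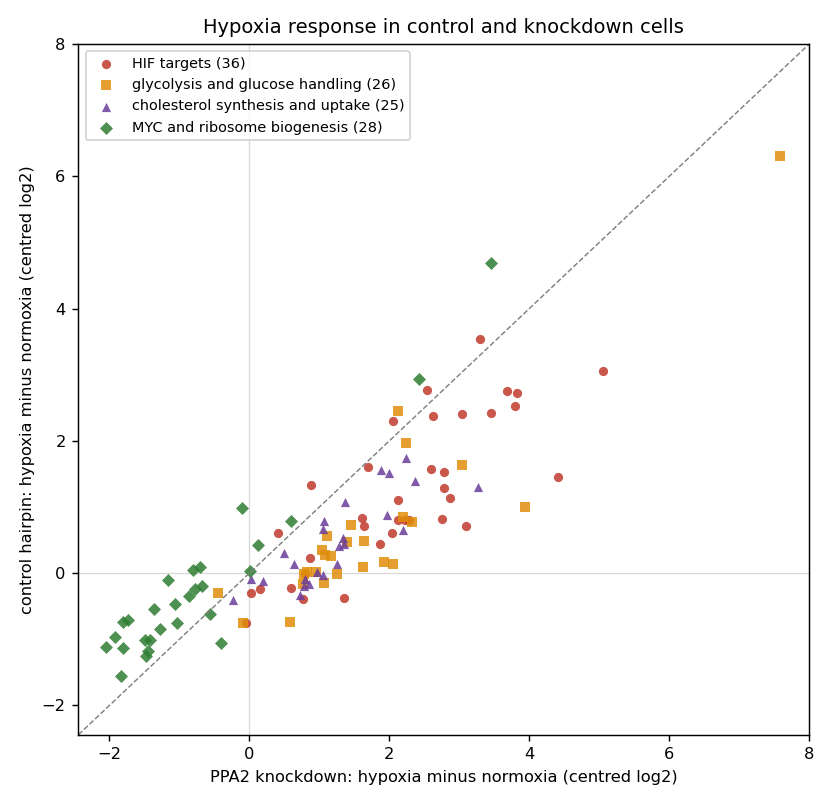
Hypoxia response of control-hairpin cells (vertical axis) against that of PPA2-knockdown cells (horizontal axis), both as centred log2 differences, for the members used of 4 lists. The dashed line marks equal responses. Most HIF targets, glycolysis and sterol genes lie below it, with list medians in control and knockdown cells of 0.97 and 2.18 for HIF targets. Most genes of MYC and ribosome biogenesis lie above it.

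The largest interactions by the naming rule were mostly those of short RNAs and mitochondrial transcripts. They were negative for MT-TL1, MT-TP, MT-ND1, MT-ND6, MT-TS1 and HMOX1, and positive for SNORD14E, SNORD6, TOMM6, SNORA33, SNORD38A and SNORD100. HMOX1, which breaks down haem, was the only one of these 12 that is a protein-coding nuclear gene with under 5% shared words. It stood at 5.63 and 4.91 FPKM under hypoxia, against 11.3 and 9.82 RPKM under normoxia in control cells and at 56.2 and 54.1 FPKM under hypoxia, against 14.9 and 12.6 RPKM under normoxia in knockdown cells, an interaction of −2.81 ± 0.14 (limma adjusted p = 2.09e-06). Among other genes of that kind the largest positive interactions were those of KLHL17, MIIP, NAT9, ZNF692, HNRNPDL and NDUFAF4. ZNF692, a zinc-finger gene, was at 60.6 and 58.8 FPKM under hypoxia, against 16.8 and 17.6 RPKM under normoxia in control cells and at 16.9 and 17.2 FPKM under hypoxia, against 18.6 and 16.2 RPKM under normoxia in knockdown cells, an interaction of 1.76 ± 0.10 (limma adjusted p = 5.19e-06).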

How the data were processed

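Per the labels' protocols, DNase-treated total RNA went through poly(A) selection into directional libraries. Per the submitters' processing notes, the tools were cutadapt 1.18, Trimmomatic 0.35, FastQC and HISAT2 2.1.0 with the build GRCh38. No source used here names the counting tool, its strand setting or the annotation. The authors deposited RPKM for 60234 genes of the normoxia libraries and FPKM for 60612 genes of the hypoxia libraries, per the file headers, and an annotated sheet of 19630 hypoxia genes, in which 0 values differed. A total of 4 columns of other samples were not used.

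Genes were joined on the 57069 symbols used once in each table. The scale was log2(value + 1), which understates differences of low genes, and centred as described with the results. Shared 31-base words were counted in GENCODE 29 transcripts, and 13319 of the genes used had a value. The control and knockdown responses were compared by an interaction term in limma 3.58.1 (R 4.3.3, trended variance, mean of at least 1). Other steps used Python 3.11.15, numpy 2.4.6 and pandas 2.3.3. The steps were tested on simulated data.

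The members, the 43 gene lists and the naming rule were chosen with earlier results of these data known. The rule named the 12 largest called differences each way among protein-coding genes with a mean of at least 5, up to 4 called members each way per list, all oxygen-sensing genes, 5 noncoding genes each way and 6 interactions of each sign. Further HIF targets, glycolysis, sterol, mitochondrial and low-shared genes were chosen by their values. Some genes that the rule names are not reported here. Alternatives were other scalings, pseudocounts, filters and thresholds, leaving out each library, and a replicate block. Same-numbered libraries of the control groups did not deviate together (r = 0.032), so replicate numbers were not taken as pairs.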

Additional observations from a re-analysis of the deposited data

Results flagged for a closer look

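The results here were picked out because the hypoxia response of control cells differed from that of PPA2-knockdown cells in the limma interaction test at an adjusted p under 0.05. Each value is the response of control minus that of knockdown cells in log2, and the median of all genes was 0.13. Called HIF targets with a smaller response in control cells were NDRG1 −2.81, DDIT4 −1.85, P4HA1 −1.58, PLOD2 −1.34, ANGPTL4 −1.11, NRN1 −1.10, FUT11 −0.94, KDM3A −0.88, RNASE4 −0.87, VLDLR −0.87, EGLN1 −0.78 and BHLHE40 −0.48. Called HIF targets with a larger response in control cells were BHLHE41 0.60, ANKZF1 0.39 and HILPDA 0.38.

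Mitochondrial transcripts had MT-TL1 −6.08, MT-TP −4.06, MT-ND1 −3.69, MT-ND6 −3.30 and MT-TS1 −3.25, and snoRNAs and TOMM6 had SNORD14E 5.02, SNORD6 3.51, TOMM6 3.23, SNORA33 3.15, SNORD38A 3.10 and SNORD100 3.03. The next genes were protein-coding with under 5% of shared words, a mean of at least 5 over the 8 libraries and at least 2 in each. Among these, the largest positive values were KLHL17 2.02, MIIP 1.79, NAT9 1.77, ZNF692 1.76, HNRNPDL 1.72 and NDUFAF4 1.65. The largest negative ones, beside NDRG1, were HMOX1 −2.81, EGLN3 −2.24, EFHD1 −2.05, CDKN1C −2.01 and INSIG1 −1.81. Groups held 2 libraries each, too few to look for a single library that stands apart.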

How the results depend on the processing

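Oxygen level and table cannot be told apart in any setting, and no counts were available to give counting error. Of 202 named genes called in the control comparison, 0 reversed under any scaling, pseudocount, filter or left-out library. The call nearly fixed this result, since it required a difference of at least 1 and no overlap. It therefore gives no support to the directions. By percentile ranks with a limit of 10 points, 2402 genes were higher and 2592 lower, and 42 of the 202 lost their call. A threshold of 0.5 gave 2805 higher and 3401 lower, a threshold of 2 gave 441 and 343, and a mean of at least 5 left 748 lower. Leaving out 1 control library in turn gave 1264 to 1440 higher and 1187 to 1497 lower.

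Sets added after seeing the data gave 275 higher and 337 lower (under 5% shared words), and 141 and 167 (under 1%). With centring within 5 classes of GC content in the first set there were 330 higher and 241 lower. The median of HIF targets was 1.09 rescaled to a common total, 1.07 by quantile normalization, 1.03 centred on the upper quartile, 1.16 with either other pseudocount, 1.13 at a mean of at least 5, 0.85 with no filter, and 0.86 to 1.02 without 1 library. It was 1.10 and 1.29 at under 5% and under 1% shared words, and 1.29 with GC centring. The glycolysis median was 0.38 by quantile normalization, 0.19 to 0.35 without 1 library, 0.41 and 0.47 at under 5% and under 1% shared words, and 0.53 with GC centring. The cause of these shifts was not tested. List medians near 0, such as those of ATF4 targets and interferon genes, changed sign between settings.

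For the interaction, quantile normalization gave 2763 positive and 2891 negative genes of 13585 tested. Requiring a difference of at least 1 as well left 773 genes, 568 positive and 205 negative. Under 5% shared words, 2630 of 5917 genes tested passed (44.4%, against 42.4% of all genes), of which 1674 were positive and 956 negative. Leaving out 1 library gave 4350 to 5969 genes, 3087 to 4029 positive and 1243 to 2078 negative, with the lone library assumed to vary like the others. With a pseudocount of 0.01, PSMA2 (−0.91) turned negative, and it is near 0 in normoxia. With the replicate block there were 3992 positive and 1828 negative genes, and the paired call gave 1176 higher and 1135 lower genes in control cells. The unadjusted p was under 0.05 for 6935 genes.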
